A study of Homo sapiens with 6 samples.

Results

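The serpin genes were taken as all genes of the deposited count table whose symbol begins with Serpin. They numbered 48 of 22989 genes, and 24 of them passed the filter on low counts and were tested. The table holds RNA-seq read counts. According to the paper, they come from paclitaxel (PTX)-resistant breast cancer stem-like cells (BCSC) derived from MDA-MB-231. This is a line of human breast cancer cells of the triple-negative type. In this study BCSC are cells sorted for high aldehyde dehydrogenase activity (ALDH+). The 3 LINC00115 KD libraries came from such cells carrying a short hairpin RNA against the long non-coding RNA LINC00115. The 3 control libraries are called WT in the labels, whereas the paper elsewhere names a control hairpin, shC, for these cells. The study describes different hairpins under the names sh115-1 and sh115-2 and places its RNA-seq with sh115-2, while the KD libraries are described as sh115-1, sh115-2 and sh115-3 and titled as replicates. Whether they share a hairpin, a clone or a culture is not settled by the labels. All p-values therefore measure the spread between these libraries, which may be technical. LINC00115 is listed under no name in the table, so every direction below rests on the labels.

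Serpins are a family of protease inhibitors with a shared fold. An inhibitory serpin offers an exposed loop as bait, the protease cuts it, and both proteins are then trapped in a covalent complex, so that each inhibitor molecule is used once. In breast cancer, serpins are best known for restraining urokinase and plasmin at the cell surface, and intracellular serpins of clade B for shielding cells against granzymes and leaked lysosomal proteases. Some members have lost inhibition and act as chaperones or secreted factors. The serpin genes of clades A and B lie in clusters of neighbouring duplicated genes. In the human RefSeq genes of GRCh38.p14, SERPINB1, SERPINB9 and SERPINB6 are direct neighbours on chromosome 6, and SERPINB2, SERPINB7 and SERPINB8 lie in a group of 10 clade B genes on chromosome 18.

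The symbols in the table are written in the style of mouse genes, and this matters for serpins because their clusters were duplicated separately in mice. Of the 48 serpin symbols, 22 match a human gene symbol once case is ignored, and 26 match none, neither current nor older, such as Serpinb9b, Serpina3n and Serpinb6a. Among the 24 tested serpins, 15 carry such a symbol, and some hold many reads, such as Serpinb9b with 1466 to 5034 counts per library. Since no human gene carries these 26 symbols, counting on human genes under human names would not give these rows. The species of the counted RNA was not tested, so the human cell line rests on the paper's description alone. The genome named is hg19 in the paper's methods and hg38 in the submitters' processing notes, and no mouse genome was used here, so no positions or sequences are given for these genes. Reads of near-identical paralogs may also have been divided between them in a way that is not stated, and the counts of single paralogs are uncertain for that reason.

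Library totals lay between 36979221 and 38799331 counts, and the chi-square per degree of freedom between replicates was 3.94 to 7.96, above sampling noise, which shows no copied library. The 8 markers of the mesenchymal line, among them Vim, Cd44 and Axl, were counted in every library, Zeb1 with only 23 to 64 counts. Of 12 luminal and epithelial markers, 11 were found, with sums of 981 to 1012 CPM (counts scaled to library size) in WT and 1198 to 1246 CPM in KD. Among them, Krt8 had 17687 to 29602 counts and Gata3 1985 to 3816, whereas Epcam had at most 5 and Pgr at most 3. Cdkn2a and Cdkn2b, which MDA-MB-231 is known to have lost, had at most 1 count. These values do not identify the cell line. Of the aldehyde dehydrogenases, Aldh1a3 and Aldh1a2 had at most 4 counts and Aldh1a1 between 8 and 52 counts per library, whereas Aldh3a1 had 779 to 1295. Some markers of other tissues differed between the groups. For scale, 5100 of the 13497 genes tested had all KD libraries above all WT libraries, and 5098 had all below. The marker lists also hold genes too scarce to be tested. Of 10 lung markers, 10 had all KD libraries above all WT libraries. Their summed level was 1.59 to 1.98 CPM in WT and 74.5 to 86.2 CPM in KD, with 6 of them at 0 counts in all WT libraries. Of 10 kidney markers, 8 were higher and 1 lower, with sums of 9.24 to 9.64 CPM and 28.3 to 32.0 CPM, and 6 were at 0 in all WT libraries. The lower one, Cubn, made up most of the WT sum, with 8.28 ± 0.132 CPM in WT and 6.07 ± 0.361 CPM in KD (SD, n = 3 each). Of 12 leukocyte markers, 4 were higher and 1 lower, in neither direction above the share of all genes tested. Their sums were 72.5 to 86.8 CPM and 144 to 160 CPM. S100a8 had 33.0 ± 1.25 CPM in WT and 95.2 ± 6.33 CPM in KD (SD, n = 3 each), while Ptprc had at most 13 counts and Cd3e 0 counts in all libraries. Liver markers stayed at or below 0.491 CPM in sum in every library, and 4 of 10 were at 0 in all WT and 3 of 10 in all KD libraries. In bulk RNA, more cells of a type and more RNA per cell cannot be told apart, and the part of these tissues in the serpin results was not tested.

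**Figure D1:**
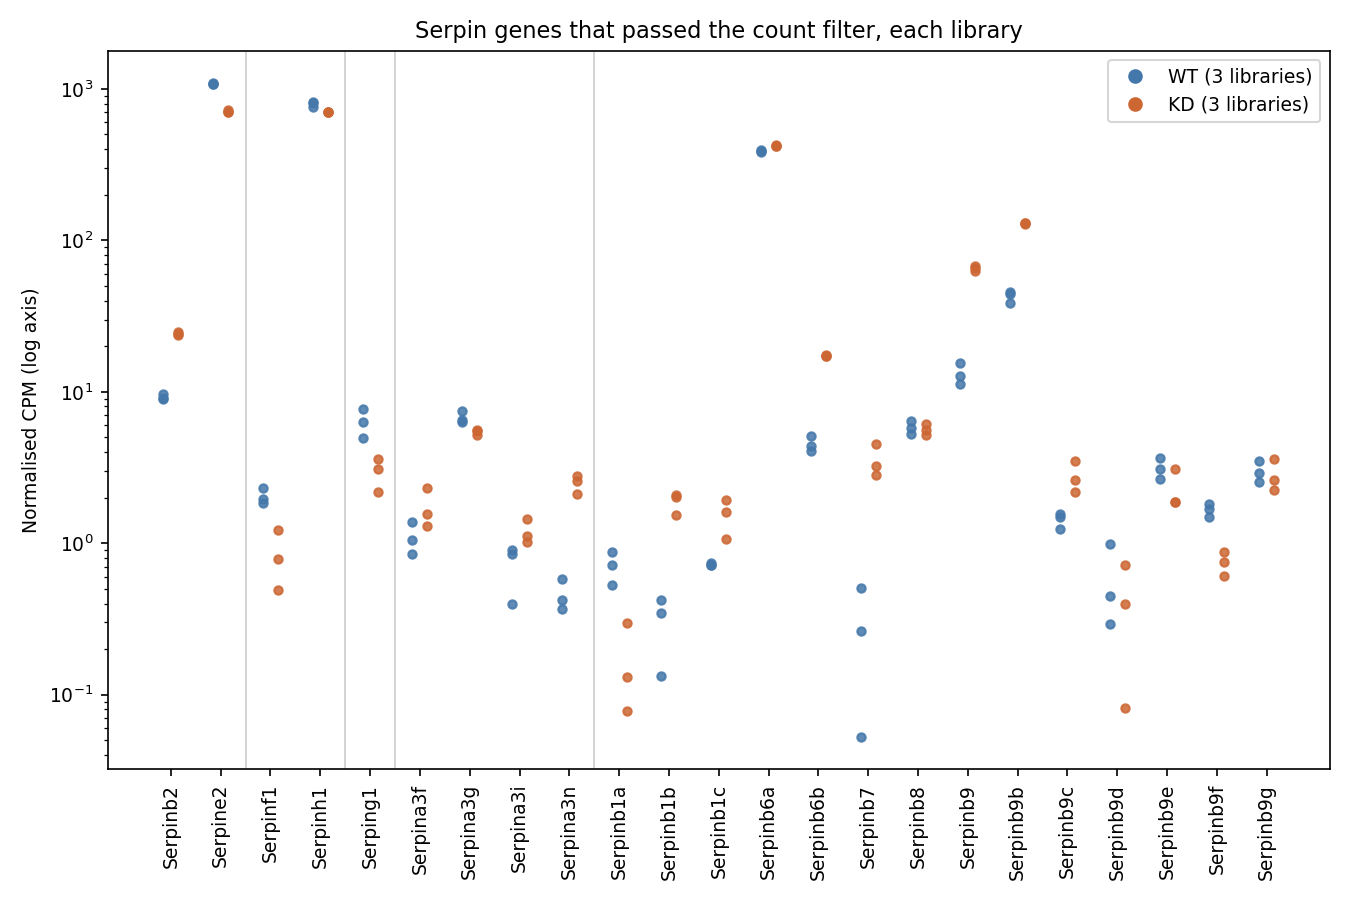
Normalised CPM on a log axis for 23 of the 24 tested serpin genes, with 1 point per library and grey lines between role groups (from left: plasminogen and coagulation, non-inhibitory, C1 inhibitor, Serpina3 genes, other clade B). Serpine2, Serpinh1 and Serpinb6a lie above 250 CPM in every library, and the 3 Serpinb9b values in KD, near 129 CPM, stand well above those in WT, near 43.0 CPM.

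Serpin reads made up 0.275% ± 0.00162 of the counts in WT and 0.236% ± 0.00147 in KD (SD, n = 3 libraries each). The share was 0.277%, 0.275% and 0.274% in the WT libraries and 0.237%, 0.235% and 0.237% in the KD libraries, without overlap. In WT, 4 genes took 95.9% to 96.2% of the serpin reads, among them Serpine2, Serpinh1 and Serpinb6a. In KD their part was 88.4% to 88.7%. The other 44 serpins together went the opposite way, from 0.0107% ± 0.000489 of the counts in WT to 0.0273% ± 0.000442 in KD (SD, n = 3). Without Serpine2, the gene with most serpin reads, the share was 0.167% in WT and 0.166% in KD. Reads per gene also grow with transcript length, which was not known here, so counts of different genes were not compared as levels.

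**Figure D2:**
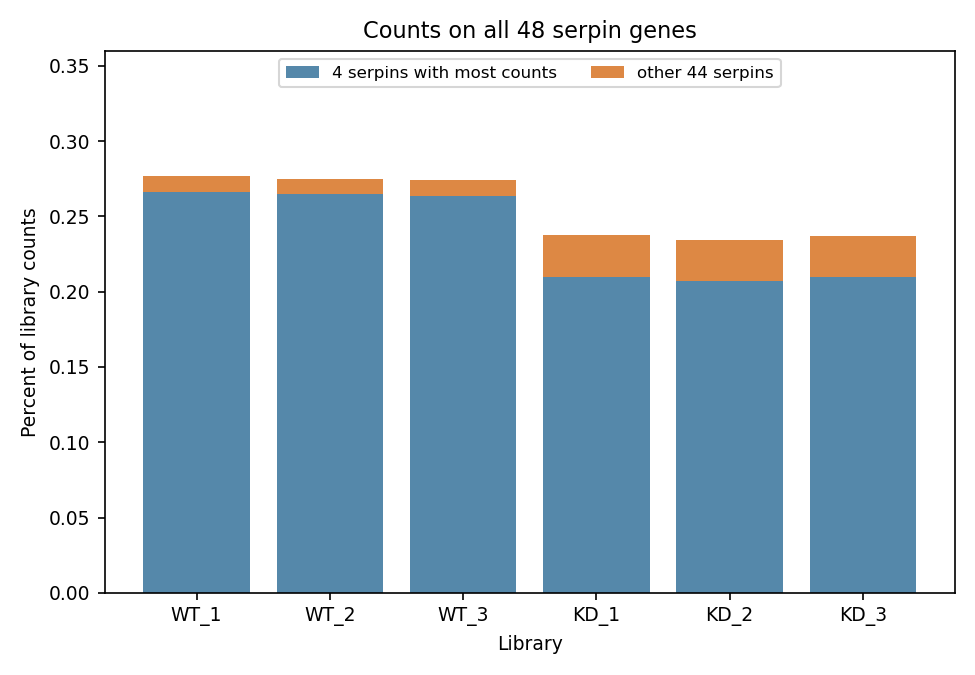
Reads on the 48 serpin genes as a percent of all counts in each library, stacked from 0 by the 4 genes with most reads together and the other 44 serpins together. The KD bars are shorter, near 0.236% against 0.275%, while their upper part for the other 44 serpins is larger, near 0.0273% against 0.0107%.

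The comparison of KD with WT used the quasi-likelihood test of edgeR over 13497 genes. Following the thresholds in the study's methods, a gene was called when its adjusted p was under 0.05 and its level differed more than 2-fold. Log2 fold changes are KD minus WT and are given with their standard error (SE). Of the 24 tested serpins, 8 were called higher in KD (33.3%), where 10.2% of all genes tested were, and 4 were called lower (16.7%), where 9.98% of all genes were. Without the fold threshold, 10 serpins were higher and 8 lower, 41.7% and 33.3%, beside 36.7% of all genes in each direction. The median log2 fold change of the tested serpins was 0.041, and that of all genes tested was −0.0061. These shares are descriptions, since the filter keeps a scarce gene when only 1 group reaches the minimum. Of the called serpins, Serpinb1a, Serpinb1b and Serpinb7 had fewer than 10 counts in at least 1 library of the lower group and passed through the other group. Of other called genes named below, F7, Fap, Klk1, Itih4 and Wfdc18 likewise passed through KD, and Cma1, Ctsk and Spink10 through WT.

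**Figure D3:**
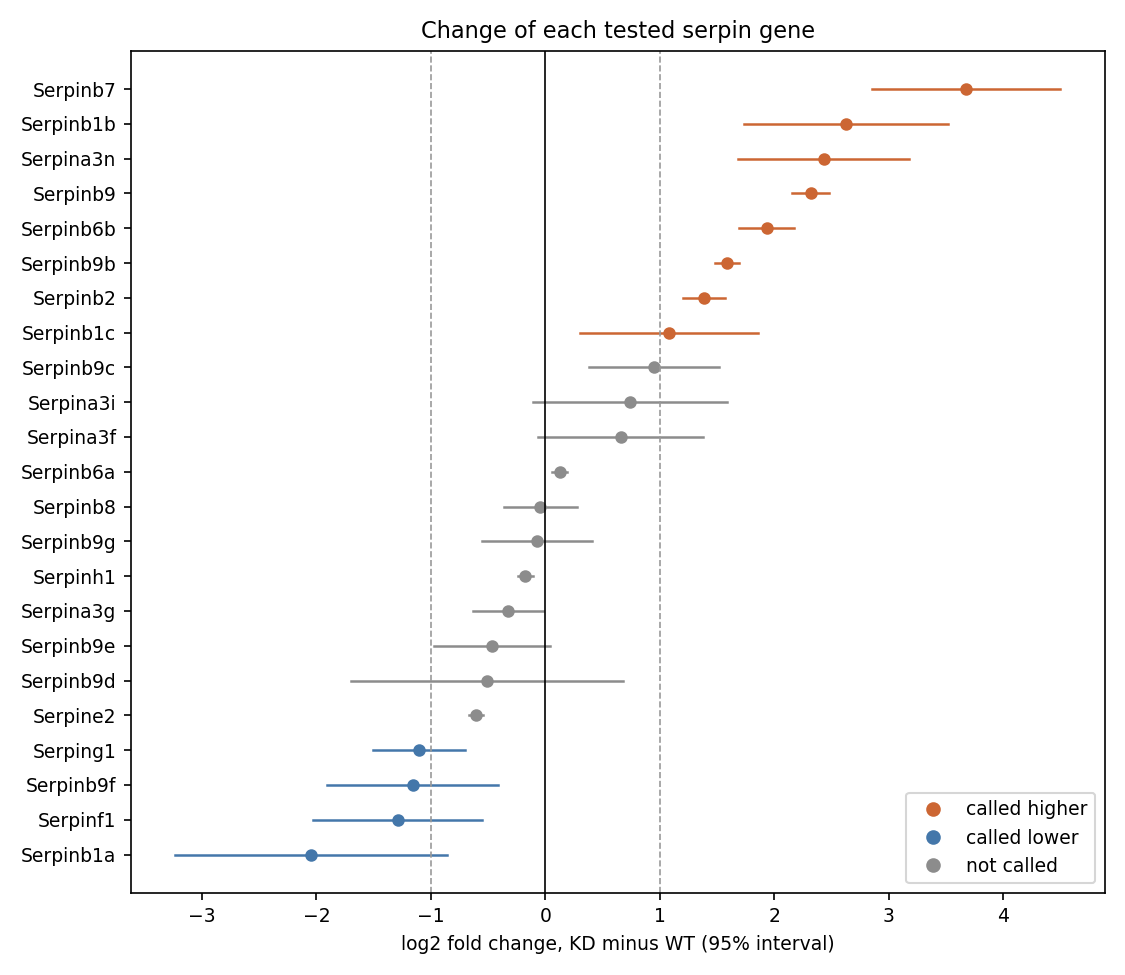
Log2 fold change of KD minus WT for 23 of the 24 tested serpins, with bars for the 95% interval of edgeR's quasi-likelihood fit and dashed lines at a fold change of 2. Serpinb7 stands at 3.67 at the top and Serpinb1a at −2.05 at the bottom, and the intervals of Serpine2, Serpinb6a and Serpinh1 are narrow and lie inside the dashed lines.

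Among the serpins that control plasminogen activation, Serpine2 fell and Serpinb2 rose. Serpine2, protease nexin 1, inhibits thrombin and urokinase close to the cell surface and had the most reads of the family. It stood at 1073, 1087 and 1080 CPM in WT and at 704, 699 and 724 CPM in KD, a log2 fold change of −0.61 (SE 0.03, adjusted p = 3.42e-19), or 1.52-fold lower. The WT libraries agreed closely and every KD library lay far below them.

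Serpinb2, plasminogen activator inhibitor 2, blocks urokinase but is kept largely inside cells. It stood at 9.69, 9.03 and 9.05 CPM in WT and at 23.7, 24.7 and 24.1 CPM in KD. This was a rise of 2.61-fold, with a log2 fold change of 1.38 (SE 0.09, adjusted p = 1.02e-15), and the groups lay far apart. A further 6 serpins that were listed with the plasminogen and coagulation group did not pass the filter. Serpinc1 (antithrombin) had at most 8 counts, Serpind1 (heparin cofactor II) at most 5, Serpina5 (protein C inhibitor) 1 count in a single library, and Serpini2 at most 6. Serpinf2 (the plasmin inhibitor alpha2-antiplasmin) had 9, 3 and 9 counts in WT and 16, 38 and 6 in KD, with overlap. Serpini1, neuroserpin, which inhibits tissue plasminogen activator, had 17, 19 and 8 counts in WT and 8, 1 and 1 in KD.

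The targets and receptors of these inhibitors were measured in the same libraries. Plau, urokinase, fell as Serpine2 did, from 297 ± 24.5 to 196 ± 6.65 CPM (SD, n = 3 each) with a log2 fold change of −0.60 (adjusted p = 1.01e-14). Plaur, the urokinase receptor, rose from 196 ± 4.71 to 282 ± 2.76 CPM, a log2 fold change of 0.52 (adjusted p = 2.11e-15). Plat, tissue plasminogen activator, differed little, at 63.0 ± 3.53 and 57.7 ± 2.77 CPM (log2 fold change −0.13, adjusted p = 0.0356), and its groups overlapped.

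Of 31 listed genes of the plasminogen and coagulation system, 18 were tested, 3 were called higher (16.7%, beside 10.2% of all genes tested) and 0 lower (beside 9.98%). Without the fold threshold, 7 were higher and 7 lower, 38.9% each, near the 36.7% of all genes in each direction. The called genes were Procr, the endothelial protein C receptor (54.8 ± 4.91 to 138 ± 5.01 CPM, log2 fold change 1.34), F2rl1, the protease-activated receptor 2 (9.65 ± 0.401 to 22.1 ± 0.784 CPM, 2.29-fold), and F7, coagulation factor VII (0.177 ± 0.146 to 0.764 ± 0.216 CPM, 2.09). Lrp1, a receptor that clears protease and serpin complexes, was 1.08-fold lower (adjusted p = 0.00326). Lrp8, a relative of Lrp1, rose from 93.3 ± 1.08 to 178 ± 4.91 CPM, just under the fold threshold (log2 fold change 0.93).

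**Figure D4:**
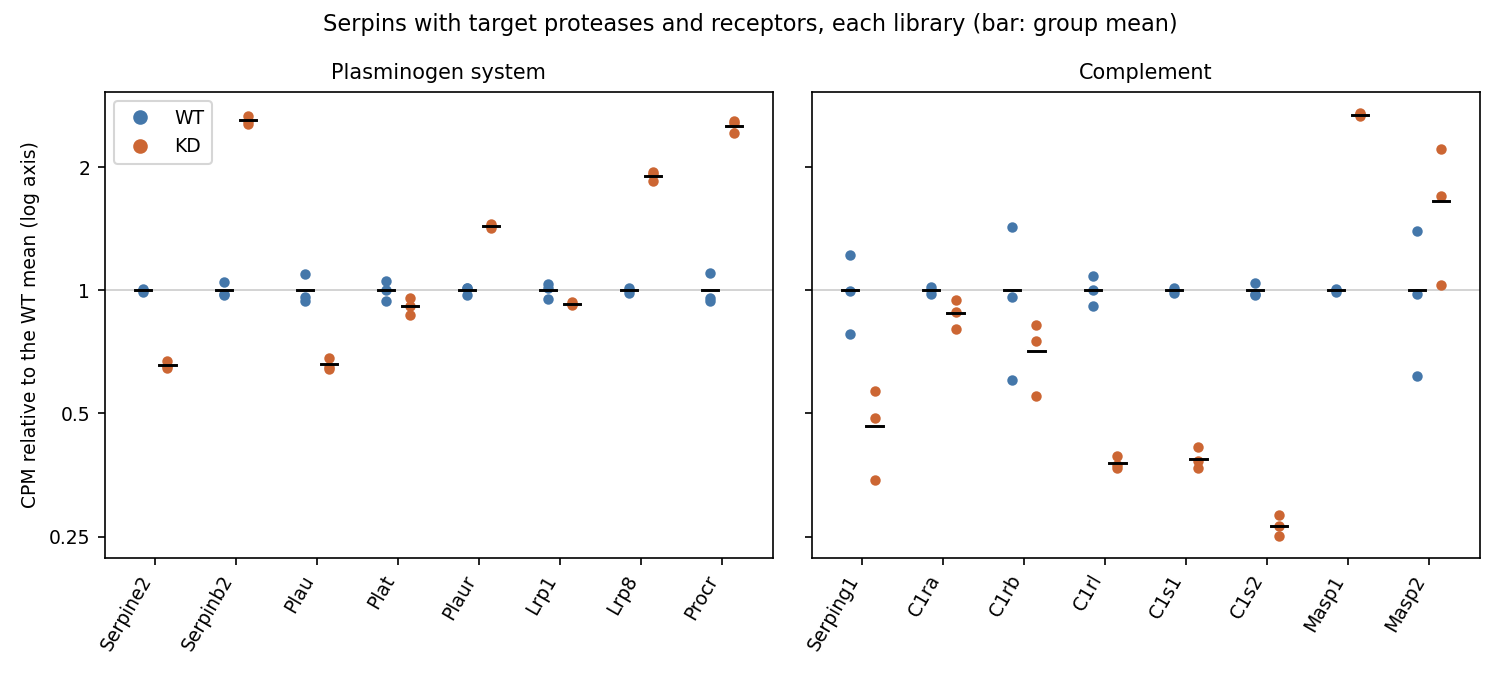
CPM of each library divided by the WT mean of the gene, on a log axis, for serpins with their target proteases and receptors; short bars are group means. Left, Serpine2 and Plau lie below 1 in KD while Serpinb2, Plaur, Lrp8 and Procr lie above it; right, Serping1, C1rl, C1s1 and C1s2 lie below 0.6 in KD and Masp1 lies above 2.

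The C1 inhibitor gene and several genes of its target proteases were lower in KD. Serping1, the C1 inhibitor, which blocks C1r and C1s of the classical complement pathway, MASP proteases of the lectin pathway and plasma kallikrein, stood at 7.70, 4.95 and 6.30 CPM in WT and at 2.17, 3.08 and 3.58 CPM in KD. The spread within each group was wide, but the groups did not overlap. The log2 fold change was −1.10 (SE 0.20, adjusted p = 7.68e-06), 2.15-fold lower. The change was −0.94 without WT replicate 1 and −0.92 without KD replicate 1, so that in these fits the fold threshold was not passed.

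Of 7 tested complement protease genes, 1 was called higher (14.3%, beside 10.2% of all genes tested) and 3 lower (42.9%, beside 9.98%). C1s1 fell from 97.0 ± 1.59 to 37.6 ± 2.28 CPM (SD, n = 3 each) with a log2 fold change of −1.37 (adjusted p = 3.13e-22). C1s2 fell from 15.3 ± 0.583 to 4.06 ± 0.239 CPM (−1.91) and the C1r-like gene C1rl from 16.4 ± 1.38 to 6.21 ± 0.227 CPM (−1.40). C1ra was only slightly lower (log2 fold change −0.18, adjusted p = 0.0189). Masp1, which starts the lectin pathway, went the other way, from 34.1 ± 0.217 to 91.7 ± 0.826 CPM, a rise of 2.69-fold (adjusted p = 3.75e-23). Masp2 had 0.945 ± 0.370 and 1.56 ± 0.562 CPM with overlapping groups (adjusted p = 0.0921), and without WT replicate 3 it was called higher (log2 fold change 1.04, adjusted p = 0.0416).

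The 2 tested serpins without protease inhibition were lower at the adjusted p, as 36.7% of all genes tested were. Of these, 1 was also called lower, as 9.98% of all genes tested were. Serpinh1, the collagen chaperone Hsp47 of the endoplasmic reticulum, stood at 756, 822 and 809 CPM in WT and at 704, 708 and 702 CPM in KD. It was 1.13-fold lower (log2 fold change −0.17, SE 0.03, adjusted p = 1.12e-05). Serpinf1, pigment epithelium-derived factor, a secreted factor known for restraining blood vessel growth, stood at 1.96, 2.30 and 1.85 CPM in WT and at 0.491, 1.23 and 0.790 CPM in KD. Its groups did not overlap, and it was called lower with a log2 fold change of −1.29 (SE 0.36, adjusted p = 0.00198). Among the markers of fibroblasts and stroma, which often express both genes, 3 of 9 were lower and 1 of 9 was higher in every KD library. Of all 13497 genes tested, 5098 were lower and 5100 higher in this way. The summed level of these markers was 175 to 193 CPM in WT and 76.6 to 78.6 CPM in KD, mostly Pdgfra. Col1a1, Col1a2 and Col3a1 had at most 20 counts in any library, and the part of stromal cells in these values was not tested.

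The genes named after alpha-1-antitrypsin and antichymotrypsin were scarce. Alpha-1-antitrypsin is the main plasma inhibitor of neutrophil elastase and is made in the liver. The 4 Serpina1 genes named after it had at most 3 counts in any library and 0 in all WT libraries. Of 6 Serpina3 genes, 4 were tested and 1 was called higher (25.0%, beside 10.2% of all genes tested). Serpina3n, an acute-phase inhibitor, stood at 0.584, 0.371 and 0.423 CPM in WT and at 2.59, 2.12 and 2.76 CPM in KD, a log2 fold change of 2.43 (SE 0.37, adjusted p = 3.84e-07). It was 5.39-fold higher, and every KD library lay above every WT library.

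The other tested Serpina3 genes were not called. Serpina3g, an inhibitor of cysteine cathepsins, had the most reads of the group and was slightly lower, at 6.34, 6.52 and 7.52 CPM in WT and 5.56, 5.50 and 5.16 CPM in KD (log2 fold change −0.33, adjusted p = 0.0478). Over the 13 alternative settings its adjusted p lay between 0.0276 and 0.186, and in 10 of them it did not pass 0.05. The count ratio of Serpina3n to Serpina3g was 0.0563 to 0.0921 in WT and 0.386 to 0.536 in KD (exact permutation p = 0.1, the smallest possible). Serpina3f (log2 fold change 0.66, 95% interval −0.060 to 1.38, adjusted p = 0.0927) and Serpina3i (0.74, −0.10 to 1.58, adjusted p = 0.108) did not pass the test. Serpina3m had 0 counts in every WT library and 6, 8 and 10 counts in KD, too few for the filter, and Serpina3c at most 6.

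**Figure D5:**
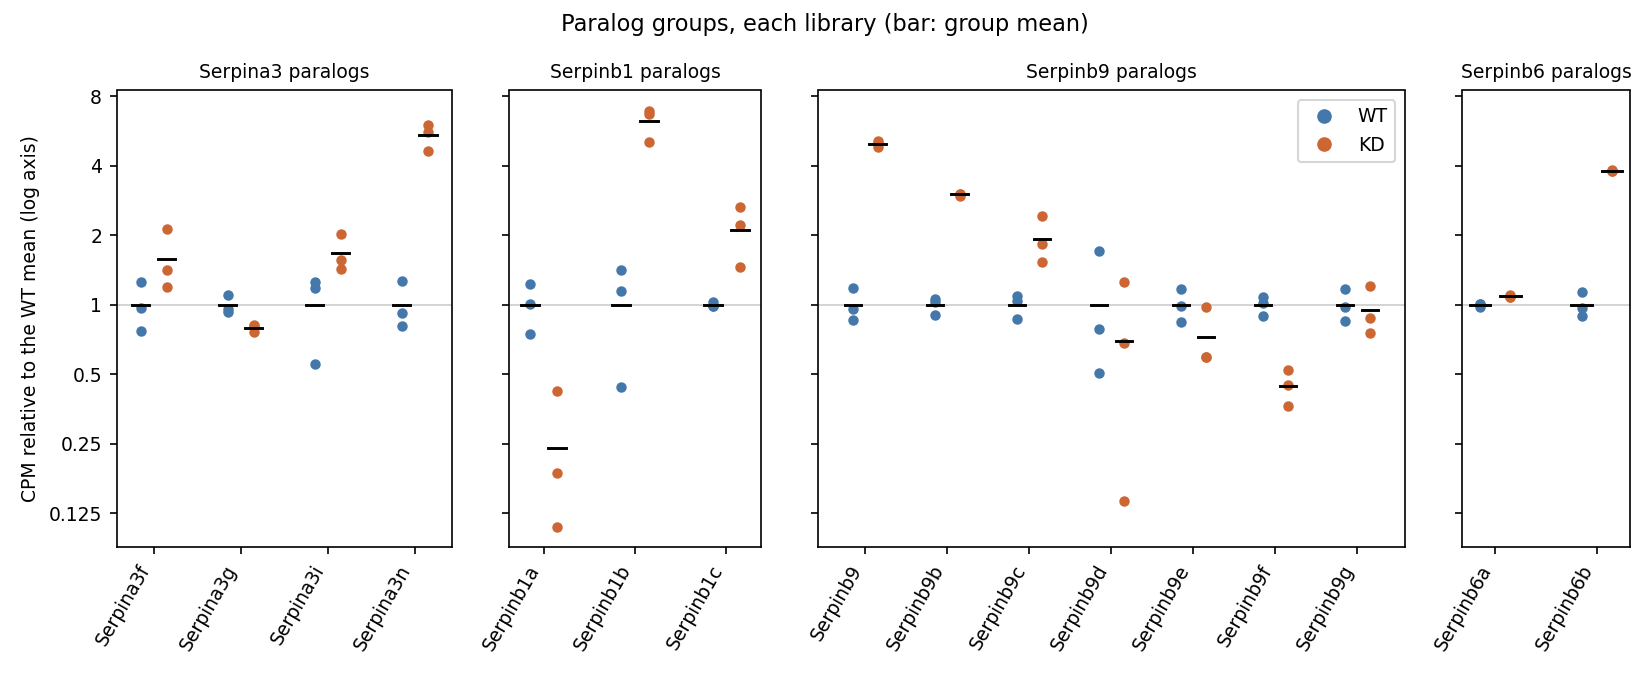
CPM of each library divided by the WT mean of the gene, on a log axis, for the tested paralogs of 4 serpin groups; short bars are group means. Within the Serpinb9 group, Serpinb9 (4.98-fold) and Serpinb9b (3.01-fold) lie well above 1 in KD while Serpinb9f (2.23-fold lower) lies below it, and within the Serpinb1 group Serpinb1b and Serpinb1a lie on opposite sides.

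Clade B, the intracellular serpins, held 24 of the 48 genes and most of the called ones. Of 15 tested, 7 were called higher (46.7%, beside 10.2% of all genes tested) and 2 lower (13.3%, beside 9.98%). The best-counted changes were in the Serpinb9 group. Serpinb9 inhibits granzyme B, the protease by which cytotoxic lymphocytes kill target cells, and is known for protecting lymphocytes and some tumour cells. It stood at 12.6, 11.3 and 15.5 CPM in WT and at 65.8, 67.3 and 63.1 CPM in KD. It was 4.98-fold higher, a log2 fold change of 2.32 (SE 0.08, adjusted p = 6.78e-24), and the gap between the groups was many times the spread within them. Serpinb9b stood at 45.8, 44.5 and 38.8 CPM in WT and at 130, 128 and 130 CPM in KD. Its rise was 3.01-fold (log2 fold change 1.59, SE 0.05, adjusted p = 2.79e-24).

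The count ratio of Serpinb9b to Serpinb9 was 2.51 to 3.95 in WT and 1.90 to 2.06 in KD, without overlap (two-sided exact permutation p = 0.1, adjusted over 6 ratios 0.12). This is the smallest p that 3 libraries against 3 allow. Serpinb9c also rose, from 1.43 ± 0.163 to 2.76 ± 0.665 CPM (SD, n = 3 each) with a log2 fold change of 0.95 (adjusted p = 0.00293). It was called higher without WT replicate 3 (1.02) and without KD replicate 3 (1.10). Serpinb9f fell. It stood at 1.80, 1.70 and 1.48 CPM in WT and at 0.750, 0.872 and 0.606 CPM in KD, without overlap, a log2 fold change of −1.16 (SE 0.37, adjusted p = 0.00542). Serpinb9e (−0.46, 95% interval −0.97 to 0.045), Serpinb9g (−0.076, −0.56 to 0.40) and Serpinb9d (−0.51, −1.70 to 0.68) did not pass the test, and their groups overlapped. When the reads of all Serpinb9 genes were added into 1 gene, its log2 fold change was 1.63 (adjusted p = 2.86e-27). Gzmb, the granzyme that Serpinb9 inhibits, had 39, 49 and 9 counts in WT and 1, 7 and 3 in KD and did not pass the filter.

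In the Serpinb6 group a well-counted gene moved little beside a paralog that rose. Serpinb6a, the mouse counterpart of an inhibitor of cathepsin G and trypsin-like proteases, stood at 382, 391 and 394 CPM in WT and at 423, 422 and 429 CPM in KD. The groups did not overlap, but the rise was only 1.09-fold (log2 fold change 0.13, SE 0.03, adjusted p = 0.000629). Serpinb6b stood at 4.06, 5.11 and 4.37 CPM in WT and at 17.2, 17.4 and 17.1 CPM in KD, 3.82-fold higher (log2 fold change 1.93, SE 0.12, adjusted p = 1.40e-16). The count ratio of Serpinb6a to Serpinb6b went from between 76.5 and 94.0 in WT to between 24.3 and 25.1 in KD (exact permutation p = 0.1). With the Serpinb6 genes added up, the log2 fold change was 0.17 (adjusted p = 1.72e-05). Serpinb6c and Serpinb6d had at most 4 counts.

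The 3 Serpinb1 genes, relatives of the inhibitor of neutrophil elastase, cathepsin G and proteinase 3, were all called, in different directions. The calls were 2 higher and 1 lower, beside 10.2% and 9.98% of all genes tested. Serpinb1a stood at 0.531, 0.715 and 0.873 CPM in WT and at 0.0776, 0.300 and 0.132 CPM in KD, that is 20 to 33 counts against 3 to 11. It was 4.14-fold lower, a log2 fold change of −2.05 (SE 0.58, adjusted p = 0.00218). Serpinb1b went from 0.133, 0.344 and 0.423 CPM to 2.02, 2.07 and 1.53 CPM, 6.17-fold higher (log2 fold change 2.63, SE 0.44, adjusted p = 2.31e-06). Serpinb1c went from 0.743, 0.715 and 0.715 CPM to 1.60, 1.06 and 1.92 CPM (log2 fold change 1.08, adjusted p = 0.0122), but it did not pass without KD replicate 3 (0.89, adjusted p = 0.0782). Together these genes had a log2 fold change of 1.04 (adjusted p = 0.000247). Of their known target proteases, Prtn3 had 4 to 18 counts per library and Elane 0 to 4.

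Serpinb7, known as megsin from the mesangial cells of the kidney and also made by keratinocytes, had the largest fold change of the tested serpins. It stood at 0.265, 0.0530 and 0.503 CPM in WT, that is 10, 2 and 19 counts, and at 4.52, 2.83 and 3.24 CPM in KD, that is 175, 104 and 123 counts. The log2 fold change was 3.67 (SE 0.41, adjusted p = 6.38e-10). It moved in the direction of 8 of the 10 kidney markers given above and against that of Cubn, and their part in this value was not tested. Serpinb8, an inhibitor of furin, did not pass the test, with 5.81 ± 0.540 CPM in WT and 5.64 ± 0.453 CPM in KD (log2 fold change −0.045, 95% interval −0.36 to 0.27, adjusted p = 0.802). Furin itself was 1.11-fold lower (adjusted p = 0.00137).

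The remaining clade B serpins were at or near 0. Serpinb5, maspin, which is known from normal mammary epithelium, had at most 6 counts in any library, Serpinb10 at most 8 and Serpinb11 at most 1. Serpinb3a, Serpinb3b and Serpinb12, genes of squamous epithelia, had 16, 2 and 11 counts in WT replicate 3 and 0 counts in the other 5 libraries. Serpinb9h had 20 counts in KD replicate 1 and at most 2 in any other library. In all, 24 serpins did not pass the filter, none with more than 38 counts in a library, and 8 of them had 0 counts in every WT library and 4 in every KD library. The 24 genes include Serpina9, Serpina11 and Serpina12, with at most 8, 4 and 2 counts.

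Over the 5 lists of target proteases and partners, the plasminogen and complement lists included, 94 genes were listed, 84 were found and 52 were tested. Of these, 10 were called higher (19.2%, beside 10.2% of all genes tested) and 9 lower (17.3%, beside 9.98%). Among membrane and secreted serine proteases, St14 (matriptase) rose from 0.424 ± 0.121 to 2.00 ± 0.220 CPM (SD, n = 3 each) with a log2 fold change of 2.23, whereas Prss8 (prostasin), which Serpine2 inhibits, fell from 5.49 ± 0.302 to 1.27 ± 0.325 CPM (−2.11). Prss22 was 2.92-fold lower (log2 fold change −1.55), and Tmprss11e fell from 5.48 ± 0.974 to 1.99 ± 0.412 CPM (−1.45). Htra2, a mitochondrial protease, rose from 42.9 ± 2.80 to 89.0 ± 1.08 CPM (1.05). Fap was called higher, but only KD replicate 2, at 1.53 CPM, stood apart, and without it the log2 fold change was 0.31 (adjusted p = 0.707). The call was also lost without WT replicate 1 (adjusted p = 0.0796) or WT replicate 2 (0.149) and with the replicate number as a block (0.120).

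Among kallikreins, Klk10 rose 2.90-fold (log2 fold change 1.54) and Klk8 from 0.415 ± 0.135 to 2.85 ± 0.0734 CPM (2.77). Klk1, the tissue kallikrein of kidney and glands, had 0 counts in every WT library and 39, 37 and 43 counts in KD, at least 13.2-fold higher than the 3 counts per library that a count of 0 allows. Cma1, mast cell chymase and a target of antichymotrypsin, fell from 2.58 ± 1.32 to 0.177 ± 0.133 CPM (−3.84). Ctsk had 11 to 15 counts in WT and 2 to 6 in KD (log2 fold change −1.71, adjusted p = 0.0258). It was not called without WT replicate 1 (adjusted p = 0.0819), WT replicate 2 (0.0714), KD replicate 2 (0.0607) or KD replicate 3 (0.109). The call was also lost with no filter on low counts (adjusted p = 0.0975). Ctsl, which had the most reads of the cathepsins, was 1.04-fold lower (adjusted p = 0.0396).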

How the data were processed

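RNA of 3 LINC00115 KD and 3 WT libraries was sequenced by the authors. They trimmed adapters, mapped reads with HISAT2 (hg19 in the methods, hg38 in the submitters' processing notes, which also name featureCounts and DESeq2) and deposited raw read counts for 22989 genes. Annotation, strand and the treatment of reads shared by paralogs are not given in the sources used here. Each column was assigned by its name, the sample's description, and 0 columns were left unused.

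Counts were analysed in R 4.3.3 with edgeR 4.0.16: filterByExpr (minimum count 10, minimum total 15), TMM scaling and the quasi-likelihood test on group, with Benjamini-Hochberg adjustment over 13497 genes. Normalised CPM use TMM-scaled totals, and a standard error is the log2 fold change divided by the root of F. A count of 0 allows 3 counts per library, for counting error only. On simulated counts of 13324 genes for this comparison, 196 of 200 genes changed by 1.5 log2 units were called, with 1 false call. The simulation gave all genes 1 common spread between replicates and left all but 200 unchanged, unlike the data. It checks the steps of the test and does not measure the error rate of the calls reported here.

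The serpins, the lists of partners and markers and the tests were chosen with earlier results of these data known. Library values are given for called serpins and the 8 tested serpins with the highest mean CPM. Plau, Plat, Plaur and called partners are given by group, and other genes named were chosen after their values were seen. Some serpin and partner genes are counted in the totals but not reported here by name. Alternatives were other scalings, no filter, at least 10 counts in every sample, DESeq2 1.42.0, each replicate left out, the replicate number as a block, and paralogs added up.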

Additional observations from a re-analysis of the deposited data

How the results depend on the processing

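The 12 called serpins remained called with DESeq2's size factors, upper quartile scaling, library size alone, DESeq2's Wald test and the replicate number as a block. The block left 8 serpins called higher and 4 lower, 10 and 7 at the adjusted p alone, and 9 and 9 partner genes. Replicates with the same number did not deviate together (correlations 0.014, −0.019 and −0.020), and those with different numbers had correlations of −0.018 to 0.038. Such values cannot show whether libraries shared a culture or a batch. Without a low-count filter, all 48 serpins were tested. Then 9 were called higher, with Serpina3m added (log2 fold change 6.02, adjusted p = 0.00217 in edgeR's quasi-likelihood test), and 7 lower, with Serpinb12, Serpinb3a (each with counts in 1 WT library) and Serpini1 added, beside 15 partner genes higher and 10 lower. With at least 10 counts in every sample, 9 of the 12 remained, since the other 3 were not tested. With paralogs added up, which leaves 12 serpin rows, 4 were called higher and 2 lower, and 6 and 5 at the adjusted p alone.

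With each replicate left out, 8 to 9 serpins were called higher and 3 to 5 lower, 10 to 11 and 7 to 8 at the adjusted p alone, and 9 to 11 and 8 to 12 partner genes. Of 24 tested serpins, 18 kept direction and call in every alternative that tested them. The sign turned for 3 that did not pass the test. Serpinb8 ranged from −0.11 (without WT replicate 3) to 0.025 (without WT replicate 1; 0.017 without KD replicate 1), Serpinb9d from −1.24 to 0.12 (without WT replicate 1) and Serpinb9g from −0.28 to 0.070 (without KD replicate 2; 0.055 without WT replicate 1). The summed serpin share was 0.274% in WT and 0.238% in KD with TMM-scaled totals, and 0.167% and 0.166% without Serpine2. With a replicate left out it was 0.274% to 0.276% in WT and 0.236% to 0.237% in KD. The 24 serpins left untested in the report were set aside by the filter, and with few counts their fold changes are imprecise.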

Other observations

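Protease inhibitors of other families were counted by symbol, families chosen after the data were seen. The secreted elastase inhibitor Slpi rose from 444 ± 38.2 to 1950 ± 111 CPM (SD, n = 3 each), or 4.40-fold (log2 fold change 2.14, SE 0.04, adjusted p = 1.61e-30 in edgeR's quasi-likelihood test), higher in 3 of 3 KD libraries than in any WT library. Its relatives Wfdc2 (log2 fold change 0.47, adjusted p = 2.91e-13) and Wfdc18 (3.24, adjusted p = 5.36e-06) were also higher, and the other 8 Wfdc genes did not pass the filter on low counts. Of 9 cystatin and stefin genes, which inhibit cysteine cathepsins, 4 were tested. All 4 passed the adjusted p threshold in the higher direction, as 36.7% of all genes tested did. Of these, 1 also passed the fold threshold, as 10.2% of all genes tested did: Stfa3, from 6.93 ± 0.632 to 17.8 ± 2.01 CPM (1.36, adjusted p = 4.84e-13). Cst6 rose less (0.69), and Cst3 and Cstb by 0.10 and 0.093 on the log2 scale. Spink10 was the only tested gene of 8 Spink genes. It stood at 1.96, 1.19 and 0.529 CPM in WT and had 1, 0 and 0 counts in KD. Of 5 inter-alpha-trypsin inhibitor genes, 3 were tested and 1 was called higher (33.3%, beside 10.2% of all genes tested). This was Itih4, with 0, 0 and 1 counts in WT and 21, 13 and 22 counts in KD. Itih2 rose from 7.63 ± 0.288 to 11.9 ± 0.591 CPM (0.64, adjusted p = 8.02e-06). The serpin-fold gene Agt, angiotensinogen, and the alpha-2-macroglobulin genes did not pass the filter on low counts.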
